A study of Mus musculus with 17 samples.

Results

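The comparison described here set the hippocampus of 5 Dp16_2xIFNRs mice against that of 6 wild-type (WT) mice, 11 of the 17 libraries of the series, across all genes in the deposited count tables. Dp16_2xIFNRs mice carry the Dp16 duplication, a segment of chromosome 16 present in an extra copy, and the labels give the dosage of their interferon receptors as normalized. The WT label names the C57BL/6J strain, the other labels give no strain, and the labels do not say how the receptor dosage was set. The Dp16_2xIFNRs group held 3 females (replicates 1, 2 and 5) and 2 males aged 17.7 to 18.0 weeks, and the WT group 3 females and 3 males aged 17.1 to 18.0 weeks, with no treatment listed. Dp16 mice, which have the duplication with the receptor genes in it, were the remaining group (n = 6) and entered the fit and the direct comparison. A difference of strain background between the WT and the duplication mice cannot be told apart from the genotype. Every sample had a mouse identifier of its own, and the second part of it, which the labels do not explain, is shared by 2 pairs of WT and Dp16_2xIFNRs mice.

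Dp16 mice model trisomy 21, since most genes of the duplicated segment have their human counterparts on chromosome 21. The segment holds a cluster of class II cytokine receptor chains. Ifnar1 and Ifnar2 form the receptor of type I interferons, Ifngr2 pairs with Ifngr1 in the receptor of interferon gamma, and Il10rb is a shared chain of the interleukin 10 and type III interferon receptors. These receptors signal through JAK kinases to STAT transcription factors, which induce interferon-stimulated genes such as GTPases, antigen presentation genes and complement. In the brain, microglia, astrocytes, vascular cells and macrophages of the brain's borders all respond to interferons.

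The 11 libraries had total counts of 30395437 to 32855277 in WT and of 30743553 to 31647125 in Dp16_2xIFNRs, and 18983 genes passed the filter on low counts. Markers of hippocampal pyramidal and granule neurons were abundant in every library, at a sum of 5002 to 6867 CPM (counts per 1e+06 counts, scaled with TMM factors) in WT and at 6063, 5887, 6464, 6077 and 6738 CPM in Dp16_2xIFNRs, and of the markers of other cell types in the lists none was at 0 in all 11 libraries. Choroid plexus markers varied widely, from 64.8 to 6741 CPM in WT and from 106 to 4349.8 CPM in Dp16_2xIFNRs, with WT replicate 6 and Dp16_2xIFNRs replicate 5 the lowest of their groups. WT replicate 4 stood apart in thalamus and habenula markers, with a sum of 665 CPM where the next WT library had 252 CPM. In bulk tissue, fewer cells of a type and less RNA per cell cannot be told apart.

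The first question was whether the receptor genes in Dp16_2xIFNRs returned to the WT level that their name implies. The means of all 4 receptor genes lay near the WT mean and below the Dp16 mean. None differed from WT by the edgeR quasi-likelihood test with Benjamini-Hochberg adjustment over all 18983 genes at an adjusted p under 0.05, the rule by which a gene is said to have risen, fallen or been called throughout. Ifnar1, at chr16:91485238-91507441 (GRCm38), ranged from 39.1 to 48.3 CPM in WT (median 39.5) and measured 46.5, 46.8, 42.8, 48.5 and 46.4 CPM in the Dp16_2xIFNRs mice. All 5 Dp16_2xIFNRs values lay above 5 of the 6 WT mice, and replicate 4, at 48.5 CPM, was just above the highest WT mouse. Ifnar2 was at 15.1 to 21.2 CPM in WT, with a median of 18.2, against 18.8, 19.0, 17.1, 18.2 and 15.5 CPM in Dp16_2xIFNRs. Ifngr2 stood at 44.6 to 57.1 CPM in WT (median 52.5) and at 52.1, 49.3, 50.5, 52.1 and 54.6 CPM in Dp16_2xIFNRs. Both genes overlapped WT fully, with the Dp16_2xIFNRs mice inside the WT range.

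Il10rb was low in all groups, at 6.81 to 9.14 CPM in WT (median 8.07) and at 8.28, 7.50, 8.41, 8.61 and 7.09 CPM in Dp16_2xIFNRs, again inside the WT range. The log2 fold changes against WT were 0.16 ± 0.057 (SE) for Ifnar1 (edgeR adjusted p = 0.181), -0.023 ± 0.084 (SE) for Ifnar2 (edgeR adjusted p = 0.922), -0.021 ± 0.067 (SE) for Ifngr2 (edgeR adjusted p = 0.906) and -0.023 ± 0.11 (SE) for Il10rb (edgeR adjusted p = 0.942). Ifnar1 alone was called without WT replicate 2, the WT mouse with the highest Ifnar1, and its unadjusted p was under 0.05 with all libraries. DESeq2 and limma-voom called 0 of the 4 receptors. Dp16 mice had 61.6 to 68.6 CPM of Ifnar1, 24.03 to 28.9 CPM of Ifnar2, 71.8 to 94.1 CPM of Ifngr2 and 8.47 to 13.1 CPM of Il10rb. Every Dp16_2xIFNRs mouse was below every Dp16 mouse in Ifnar1, Ifnar2 and Ifngr2, and only Dp16 replicate 6, at 8.47 CPM, fell among the Dp16_2xIFNRs values of Il10rb. Ifnar2 and Il10rb share their strand with the readthrough model Gm21970, and counts shared with it are uncertain.

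**Figure D1:**
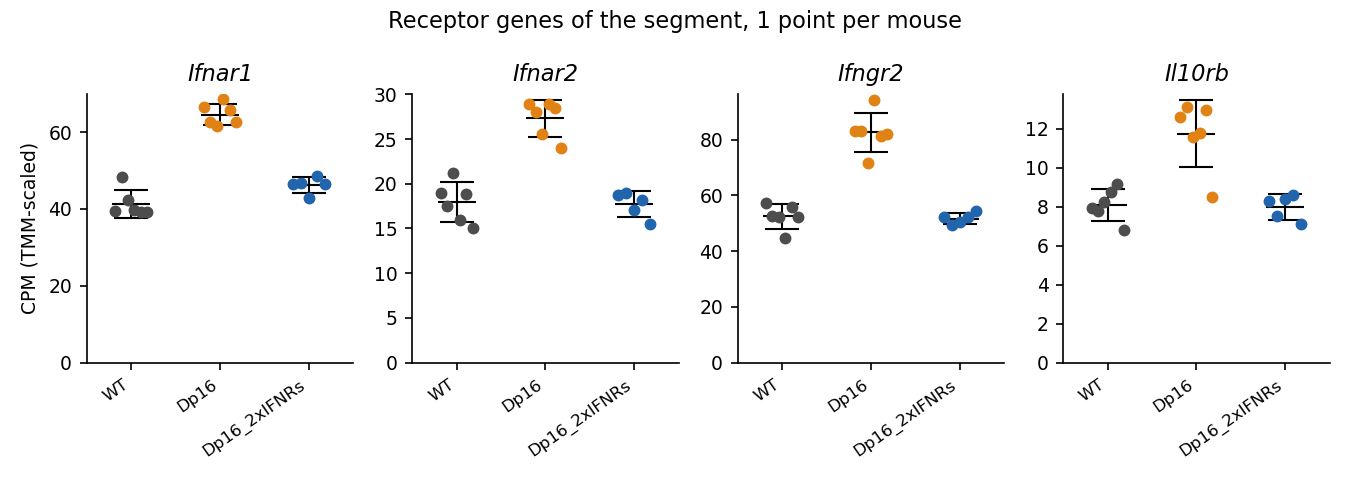
Level of the 4 receptor genes in each mouse of the 3 groups, in TMM-scaled CPM on axes that start at 0; points are mice, horizontal lines the group mean and error bars 1 SD. The Dp16_2xIFNRs points lie inside the WT range for Ifnar2, Ifngr2 and Il10rb, and at 46.5, 46.8, 42.8, 48.5 and 46.4 CPM for Ifnar1, above 5 of the 6 WT mice and below the 61.6 to 68.6 CPM of Dp16.

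The next question was how far the rest of the duplicated segment stayed at its raised dosage. Apart from the receptors it did, with a median rise of 1.47-fold. The amyloid precursor App, the kinase Dyrk1a, the calcineurin inhibitor Rcan1, the vesicle proteins Synj1 and Itsn1, the potassium channel subunit Kcnj6 and the transcription factor Bach1 all rose. So did the interferon-induced GTPase Mx2, which lies in the segment.

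The segment was taken from Lipi to Zbtb21, at chr16:75540514-97962622, and 384 genes of the tables lie in it. Of these, 262 had too few counts to be tested, 21 were tested at a mean under 1 CPM and 101 had at least 1 CPM. EdgeR called 186 of the 18983 genes tested (0.98%) between Dp16_2xIFNRs and WT, 121 higher (0.637%) and 65 lower (0.342%). In the segment 66 of the 122 genes tested were higher (54.1%) and 0 lower, with DESeq2 calling 1 lower, and none of the 66 was under 1 CPM. Of the 97 genes with at least 1 CPM that are not receptors, 94 had a positive log2 fold change, with a median of 0.56 and an interquartile range of 0.45 to 0.67. For 70 of the 97 the 95% interval held the copy ratio of 1.5 and not 1. For 7 it held both, for 4 it held 1 and not 1.5, for 9 it lay between them, for 6 above 1.5, and for 1, the predicted gene Gm9843, below 1.

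The shift was present in each mouse. The median log2 ratio of these 97 genes to the WT mean was 0.54 to 0.59 in the Dp16_2xIFNRs mice and -0.041 to 0.035 in the WT mice, so the groups were far apart. The mean difference was 0.56 (two-sided exact permutation p = 0.00433, the smallest that 5 against 6 mice allow). Over the alternatives tried, without single libraries and with other gene sets and scalings, the difference was 0.53 to 0.58.

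**Figure D2:**
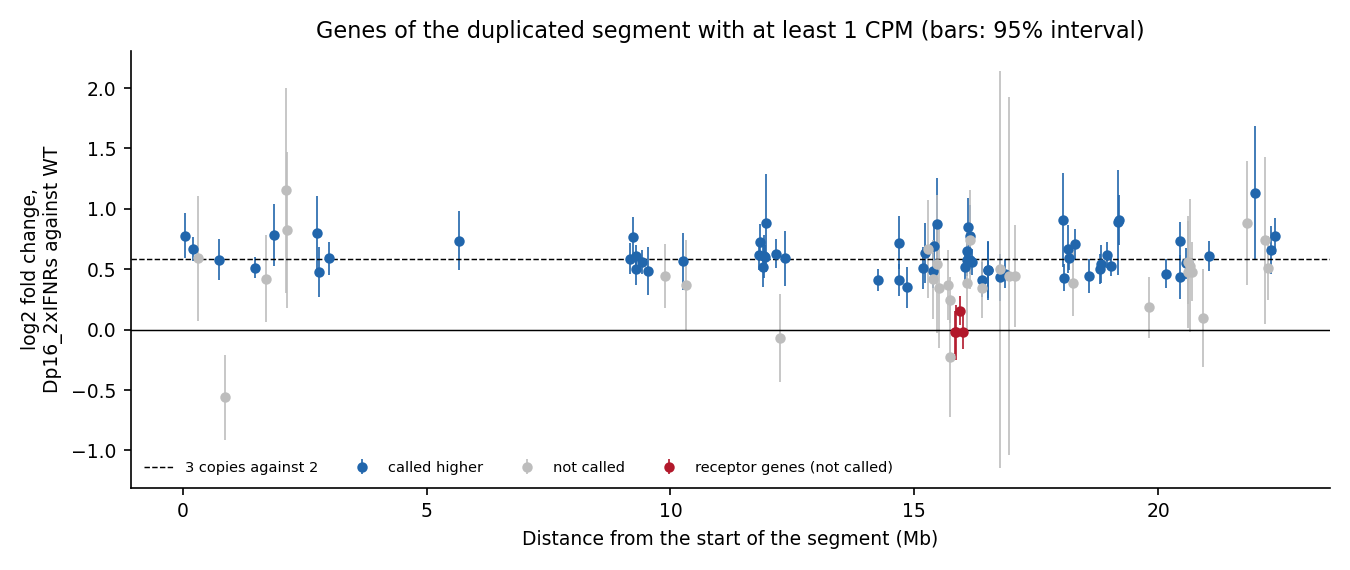
Log2 fold change of Dp16_2xIFNRs against WT for the 101 segment genes of at least 1 CPM, by distance from the start of the segment in Mb; bars are 95% intervals, the dashed line marks 3 copies against 2 and the solid line no difference. Genes called higher (blue) lie around the dashed line over the whole segment, while the 4 receptor genes (red), near 16 Mb, lie at 0.16 and -0.02.

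The counts of the role lists below are to be read against the segment as a whole. There, 66 of the 122 genes tested were called higher (54.1%), all of them among the 97 of at least 1 CPM that are not receptors. Of the 10 listed surface proteins and channels of the segment that were tested, not all of them neuronal, 7 rose, and the median was 0.60. Kcnj6, which encodes the GIRK2 subunit of G protein-gated potassium channels and has a large change for the segment, ranged from 26.2 to 35.8 CPM in WT (median 29.2) and measured 43.0, 60.6, 60.3, 55.8 and 60.4 CPM in the Dp16_2xIFNRs mice. Replicate 1 was the lowest of the Dp16_2xIFNRs mice and still above every WT mouse. For Kcnj6 the log2 fold change was 0.91 ± 0.10 (SE; edgeR adjusted p = 2.03e-05). App, the precursor of amyloid beta, was at 1710.2 to 1846 CPM in WT, with a median of 1735, against 2715, 2509.7, 2565, 2551 and 2585 CPM in Dp16_2xIFNRs. No App value overlapped, and the rise was 0.56 ± 0.047 (SE) on the log2 scale (edgeR adjusted p = 9.32e-07). Jam2, a junctional adhesion molecule of endothelium, rose by 0.77, from 43.8 to 51.5 CPM to 83.7, 80.3, 72.5, 76.3 and 91.0 CPM (edgeR adjusted p = 7.79e-06). Dscam, an immunoglobulin superfamily molecule of neurite self-avoidance, rose by 0.61, from 58.2 to 74.9 CPM to 98.1, 89.5, 99.9, 103 and 108 CPM (edgeR adjusted p = 7.79e-06). In both genes all Dp16_2xIFNRs mice lay above all WT mice.

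Vesicle traffic genes rose in 4 of 6 cases, with a median of 0.54. Synj1, the phosphoinositide phosphatase that uncoats clathrin-coated vesicles, stood at 397 to 552 CPM in WT (median 451) and at 731, 723, 748, 800.0 and 766 CPM in Dp16_2xIFNRs. For Synj1 the groups did not overlap and the log2 fold change was 0.69 ± 0.073 (SE; edgeR adjusted p = 1.44e-05). Itsn1, an endocytic scaffold, rose by 0.56 (adjusted p = 2.62e-06), the endosomal retrieval subunit Vps26c by 0.62 (adjusted p = 8.28e-07) and the membrane protein Tmem50b by 0.52 (adjusted p = 0.000179), all by edgeR. Tmem50b starts close to the end of Ifngr2, and Gart lies beyond it. Tmem50b ranged from 84.5 to 101 CPM in WT (median 93.2) and measured 145, 112, 130.4, 130.4 and 144 CPM in the Dp16_2xIFNRs mice, with no overlap between the groups.

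Signalling genes, 6 of 9 called with a median of 0.53, included Dyrk1a, a dual-specificity kinase. Dyrk1a was at 80.5 to 92.5 CPM in WT, with a median of 83.7, against 123, 121, 119, 128 and 117 CPM in Dp16_2xIFNRs. All Dp16_2xIFNRs mice were above WT replicate 6, the highest WT mouse, and the log2 fold change was 0.53 ± 0.042 (SE; edgeR adjusted p = 7.28e-07). Rcan1, which inhibits calcineurin, stood at 45.2 to 55.2 CPM in WT (median 49.6) and at 75.2, 65.4, 62.5, 72.7 and 70.6 CPM in Dp16_2xIFNRs. It rose by 0.46 ± 0.058 (SE) on the log2 scale (edgeR adjusted p = 0.000116), again without overlap. Tiam1, an exchange factor for the GTPase Rac, rose by 0.41 (edgeR adjusted p = 2.42e-05) and Cryzl1, a quinone oxidoreductase homologue, by 0.57 (edgeR adjusted p = 2.62e-06).

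Transcription and chromatin genes were called in 10 of 16 cases, with a median of 0.62. Bach1, the heme-regulated repressor of antioxidant genes, ranged from 15.2 to 17.2 CPM in WT (median 16.6) and measured 25.03, 27.3, 23.1, 26.7 and 23.9 CPM in the Dp16_2xIFNRs mice. All Dp16_2xIFNRs values of Bach1 exceeded the WT range, a difference of 0.63 ± 0.057 on the log2 scale (SE; edgeR adjusted p = 2.62e-06). Gabpa, an ETS factor that drives mitochondrial genes, rose by 0.61, the nuclear body ATPase Morc3 by 0.71 and the zinc finger protein Zbtb21, the last gene of the segment, by 0.78 (edgeR adjusted p = 3.07e-07, 8.28e-07 and 2.62e-06). Olig2 and Olig1, the factors of the oligodendrocyte lineage, were picked after their values were seen. Olig2 had 27.9 to 42.0 CPM in WT against 60.7, 36.8, 52.2, 33.4 and 47.2 CPM in Dp16_2xIFNRs, with replicates 2 and 4 inside the WT range. Its log2 fold change of 0.37 (edgeR adjusted p = 0.190) did not pass, nor did that of Olig1 at 0.24 (edgeR adjusted p = 0.192).

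Genes of protein quality control and of metabolism rose in nearly every case, where 66 of the 97 segment genes of at least 1 CPM other than the receptors did. Whether these lists differ from the rest of the segment was not tested. Of 8 quality control genes 7 were called (median 0.60). Of 14 genes listed under metabolism and mitochondria, a broad list that also holds Mis18a and Eva1c, 13 were called (median 0.50). Cct8, a subunit of the cytosolic chaperonin, was at 164 to 186 CPM in WT, with a median of 178, against 277, 246, 259.7, 279.8 and 282 CPM in Dp16_2xIFNRs. For Cct8 the groups were apart, a difference of 0.60 ± 0.048 on the log2 scale (SE; edgeR adjusted p = 7.28e-07). The heat shock protein homologue Hspa13 rose by 0.67, the deubiquitinase Usp25 by 0.51 and the J-domain protein Dnajc28 by 0.65 (edgeR adjusted p = 3.07e-07, 7.28e-07 and 0.000152). Gart, a trifunctional enzyme of purine synthesis, stood at 32.0 to 33.5 CPM in WT (median 32.3) and at 52.0, 42.6, 47.1, 44.8 and 55.4 CPM in Dp16_2xIFNRs. It rose by 0.57 ± 0.061 (SE) on the log2 scale (edgeR adjusted p = 1.62e-05) with no overlap. The methyltransferase N6amt1 rose by 0.62, the mitochondrial ribosome protein Mrpl39 by 0.59 and Pigp, of the first step of GPI anchor synthesis, by 0.50 (edgeR adjusted p = 5.65e-06, 1.07e-05 and 4.45e-05).

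Mx2 and Mx1, interferon-induced genes of the GTPase family, are the segment's listed interferon targets. Mx2, at chr16:97535308-97560900, ranged from 0.463 to 1.03 CPM in WT (median 0.694) and measured 1.75, 1.86, 1.97, 1.30 and 1.22 CPM in the Dp16_2xIFNRs mice. All Dp16_2xIFNRs mice exceeded all WT mice, and the log2 fold change was 1.13 ± 0.27 (SE; edgeR adjusted p = 0.0476), with a 95% interval that held the copy ratio. Leaving out single libraries ended the call in 8 of 11 cases (highest edgeR adjusted p = 0.193, without Dp16_2xIFNRs replicate 3). Dp16 mice had 0.857 to 2.42 CPM of Mx2, with a log2 difference of Dp16_2xIFNRs from Dp16 of 0.33 (edgeR adjusted p = 0.639). Mx1 was scarce, at 0 to 0.438 CPM in WT (median 0.172) and at 0.550, 1.23, 0.825, 0.127 and 0.802 CPM in Dp16_2xIFNRs, and its log2 fold change of 1.72 did not pass (edgeR adjusted p = 0.120).

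The extremes of the segment were mostly scarce transcripts. C130023A14Rik, on the strand of the host transcript of a microRNA cluster, had the highest log2 fold change among segment genes of at least 1 CPM, 1.15, which did not pass (edgeR adjusted p = 0.169) and spanned 0.479 to 2.61 CPM in WT and 2.13, 4.85, 5.11, 4.38 and 1.83 CPM in Dp16_2xIFNRs. Mx2 and Kcnj6 came next. At the lower end Gm9843 had -0.56 (edgeR adjusted p = 0.116), Gm15966, which runs opposite to Olig1, -0.23 (edgeR adjusted p = 0.664), and 2810407A14Rik -0.072 (edgeR adjusted p = 0.870). None of these was called. The protease gene Bace2 at 0.88 (edgeR adjusted p = 0.0905) and the calmodulin-binding Pcp4 at 0.10 (edgeR adjusted p = 0.840), both named after their values were seen, were not called either.

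Outside the segment the question was what differs from WT in mice of normalized receptor dosage. The complement component C4b, the NADPH oxidase subunit Cybb, the linker histone H1f4 and the betaine transporter Slc6a12 rose. Cbs, the enzyme that condenses homocysteine and serine, fell, together with the astrocyte-derived Mfge8, the matrix protein Tnc and the BMP antagonist Chrdl1. The agouti gene, a, was present in Dp16_2xIFNRs and nearly absent in WT.

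EdgeR called 120 of the 18861 genes tested outside the segment, 55 higher (0.292%) and 65 lower (0.345%). Most changes were modest: 61 of the 120 were under 0.5 on the log2 scale and 17 more than 2-fold, and the median over all genes outside was 0.0036. At an unadjusted p under 0.05 there were 3143 genes, where 5% would be 943. The CPM of the groups did not overlap for 164 genes on the higher side (0.87%) and 184 on the lower (0.976%), among them 45 and 51 of the called genes. Of the 120, 1 lies on chromosome 16, 13 have clone or predicted names and 63 overlap another annotated gene. The number of calls depended on single libraries. It was 75 without WT replicate 1, 187 without WT replicate 2, 72 without WT replicate 3, 362 without WT replicate 4 and 73 without WT replicate 5. Without Dp16_2xIFNRs replicate 1 it was 452, without replicate 2 60, without replicate 3 45 and without replicate 4 68. In all, 39 of the 120 calls held without each library in turn.

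The largest rise was that of a, which encodes agouti signalling protein, made in hair follicles and an antagonist of melanocortin receptors. C57BL/6J mice carry the nonagouti allele of this gene. It had 0 to 0.0313 CPM in WT and 2.65, 2.39, 2.60, 2.19 and 2.41 CPM in Dp16_2xIFNRs, or 3 counts in the 6 WT libraries together and 384 in the 5 Dp16_2xIFNRs libraries. The ratio of the levels was 158 (95% Clopper-Pearson interval 53.7 to 770.3, which covers counting error only; edgeR adjusted p = 3.78e-10). Dp16 mice had 2.27 to 3.34 CPM. The annotated gene, chr2:154791402-155051012, spans Raly, Eif2s2 and Gm14226, of which Raly and Gm14226 are on its strand. Outside the segment a was called under every alternative tried, the only gene of which this holds.

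Among called genes of at least 1 CPM, Slc47a1, Slc6a12, H1f4 and Lrp2 came next in size. Slc47a1, an exporter of organic cations that is also a fibroblast marker here, was at 0.218 to 0.772 CPM in WT, with a median of 0.553, against 2.102, 2.46, 1.11, 2.83 and 2.05 CPM in Dp16_2xIFNRs. All Dp16_2xIFNRs mice were above WT, replicate 3 the least, a difference of 2.00 ± 0.43 on the log2 scale (SE; edgeR adjusted p = 0.0290). Slc6a12, the betaine and GABA transporter BGT1, stood at 0.382 to 0.783 CPM in WT (median 0.629) and at 1.68, 2.05, 1.62, 1.78 and 2.02 CPM in Dp16_2xIFNRs. The Dp16_2xIFNRs mice were close together and above all WT mice, and the log2 fold change was 1.53 ± 0.30 (SE; edgeR adjusted p = 0.0125). Lrp2, the endocytic receptor megalin, ranged from 0.607 to 2.13 CPM in WT (median 1.23) and measured 2.102, 3.87, 3.21, 3.15 and 2.34 CPM in the Dp16_2xIFNRs mice. Replicate 1 of Dp16_2xIFNRs lay just under the highest WT mouse, and Lrp2 rose by 1.23 ± 0.24 (SE) on the log2 scale (edgeR adjusted p = 0.0146). Of the 11 libraries left out in turn, the number that ended the call was 5 for Slc47a1 (highest edgeR adjusted p = 0.107, without Dp16_2xIFNRs replicate 4), 2 for Lrp2 (highest edgeR adjusted p = 0.0639, without Dp16_2xIFNRs replicate 2) and 0 for Slc6a12.

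H1f4, one of the replication-type linker histones, was at 1.38 to 3.13 CPM in WT, with a median of 2.11, against 4.53, 5.64, 3.46, 6.35 and 7.86 CPM in Dp16_2xIFNRs. It rose by 1.38 ± 0.26 (SE; edgeR adjusted p = 0.0110), with the groups apart, and overlaps other annotated genes on its strand, a histone H2B gene among them. Poly(A) libraries measure only the polyadenylated transcripts of such genes. Exoc3l4 stood at 0.720 to 2.09 CPM in WT (median 1.64) and at 2.75, 2.55, 3.01, 3.05 and 2.34 CPM in Dp16_2xIFNRs. It rose by 0.84 ± 0.18 (SE; edgeR adjusted p = 0.0302) without overlap, and lost its call without single libraries in 5 of 11 cases (highest edgeR adjusted p = 0.0997, without Dp16_2xIFNRs replicate 3).

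The complement genes C4b and C2 and the phagocyte gene Cybb were also among the 10 largest rises. C4b, the complement component that microglia, astrocytes and oligodendrocytes can make, was the most abundant of them, at chr17:34728380-34743882. It ranged from 28.9 to 41.8 CPM in WT (median 36.7) and measured 71.6, 78.6, 60.3, 57.0 and 63.4 CPM in the Dp16_2xIFNRs mice. The lowest Dp16_2xIFNRs mouse was well above the highest WT mouse, and the log2 fold change was 0.88 ± 0.11 (SE; edgeR adjusted p = 8.74e-05). C2, the protease that joins a fragment of complement component C4 in the C3 convertase, was at 0.808 to 1.30 CPM in WT, with a median of 1.04, against 1.91, 2.30, 1.55, 2.48 and 1.96 CPM in Dp16_2xIFNRs. All Dp16_2xIFNRs mice lay above WT, a difference of 0.96 ± 0.23 on the log2 scale (SE; edgeR adjusted p = 0.0487). Cybb, the catalytic subunit of the phagocyte NADPH oxidase, at chrX:9435252-9487771, stood at 0.767 to 1.37 CPM in WT (median 0.995) and at 1.97, 2.17, 2.54, 1.68 and 1.35 CPM in Dp16_2xIFNRs. Replicate 5 of Dp16_2xIFNRs lay at the top of the WT range, and Cybb rose by 0.94 ± 0.21 (SE; edgeR adjusted p = 0.0306).

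Fgl2, a fibrinogen-related protein of macrophages, T cells and endothelium, ranged from 2.05 to 3.70 CPM in WT (median 2.81) and measured 7.70, 5.35, 3.90, 4.92 and 5.39 CPM in the Dp16_2xIFNRs mice. The lowest Dp16_2xIFNRs mouse, replicate 3, was just above the highest WT mouse, and the rise was 0.90 ± 0.18 (SE; edgeR adjusted p = 0.0132). The number of the 11 libraries whose omission ended the call was 10 for C2 (highest edgeR adjusted p = 0.143, without Dp16_2xIFNRs replicate 4), 7 for Cybb (highest edgeR adjusted p = 0.160, without Dp16_2xIFNRs replicate 3) and 0 for C4b and for Fgl2. Marker sums of border macrophages and of meningeal fibroblasts were also mostly higher in Dp16_2xIFNRs. Cybb is itself a member of the border macrophage list, as is the called gene Lyz2, so this sum is not independent of them. The border macrophage sum was 24.05 to 29.1 CPM in WT and 48.1, 38.2, 40.5, 35.7 and 34.1 CPM in Dp16_2xIFNRs, and the fibroblast sum 99.4 to 139 CPM in WT and 199, 180.5, 162, 162 and 128 CPM in Dp16_2xIFNRs. With the fibroblast level as a covariate, a choice made after seeing the data, C4b kept its call (edgeR adjusted p = 0.00413). Slc47a1, Slc6a12, C2, Cybb and Fgl2 did not (0.355, 0.231, 0.353, 0.231 and 0.202). Slc47a1 is a member of the list behind this covariate, so it was adjusted in part for itself. The fibroblast level was also mostly higher in Dp16_2xIFNRs than in WT. The covariate thus takes up part of the genotype difference, and a lost call can reflect lower precision.

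**Figure D3:**
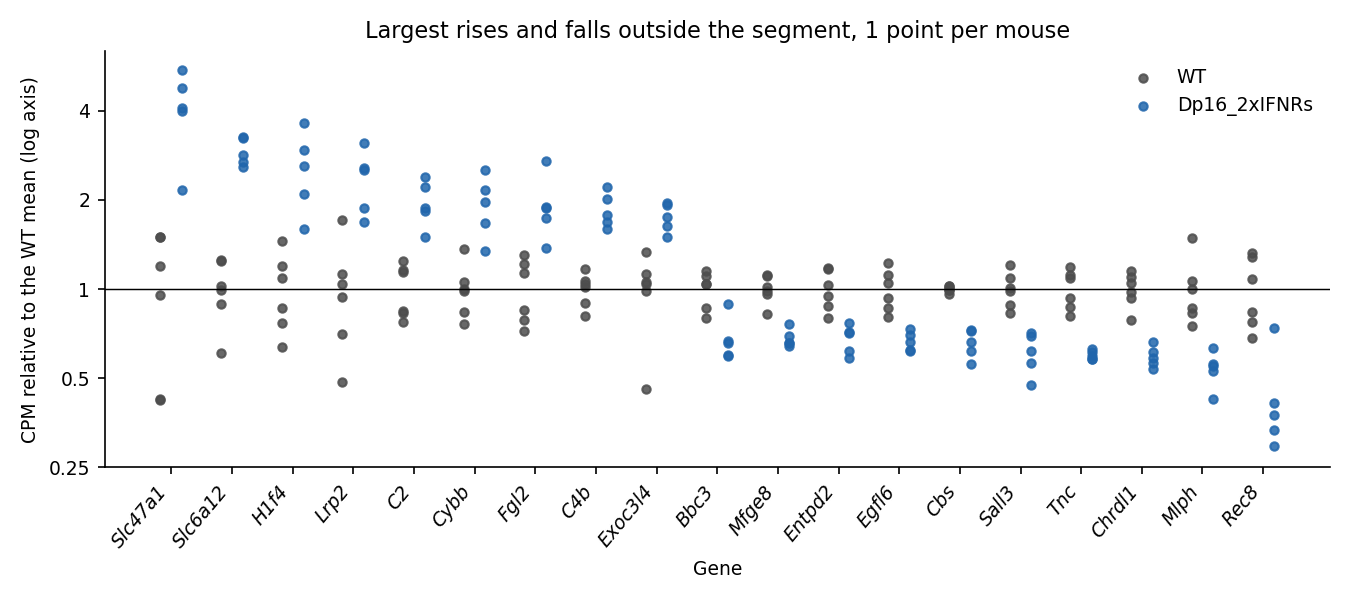
Level in each mouse relative to the WT mean, on a log axis, for the named genes with large rises and falls outside the segment, the gene a left out because WT has almost no counts of it; grey points are WT mice and blue points Dp16_2xIFNRs mice. The blue points lie apart from the grey ones in most genes, and overlap them in Lrp2, Cybb, Bbc3 and Rec8.

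Interferon response elements and gamma-activated sites are the DNA motifs bound by factors downstream of the receptors, so the 250 bases upstream of the RefSeq starts (GRCm38.p6) were searched for GAAA followed after any 2 bases by GAAA, and for TTCNNNGAA, on both strands. Of the 10 genes with the largest rises, 7 had an entry in the promoter table and 3 held a motif: Cybb, H1f4 and Fgl2. Those of Cybb and H1f4 are shown as the upstream sequences of a called immune gene and a called histone gene that hold the motifs. Capitals mark the matches, and each line runs 5′ to 3′ on the strand of the gene. The Cybb window is chrX:9469325-9469574 (minus strand), with interferon response element matches at 159 to 168, 115 to 124 and 20 to 29 bases before the start. The H1f4 window is chr13:23622559-23622808 (minus strand), with a gamma-activated site match at 187 to 195 bases before the start.
Cybb: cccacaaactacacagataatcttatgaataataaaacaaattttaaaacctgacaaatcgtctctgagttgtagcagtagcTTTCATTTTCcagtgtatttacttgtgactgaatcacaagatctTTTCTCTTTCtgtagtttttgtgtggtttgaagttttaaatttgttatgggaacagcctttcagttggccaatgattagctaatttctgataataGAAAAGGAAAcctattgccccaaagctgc
H1f4: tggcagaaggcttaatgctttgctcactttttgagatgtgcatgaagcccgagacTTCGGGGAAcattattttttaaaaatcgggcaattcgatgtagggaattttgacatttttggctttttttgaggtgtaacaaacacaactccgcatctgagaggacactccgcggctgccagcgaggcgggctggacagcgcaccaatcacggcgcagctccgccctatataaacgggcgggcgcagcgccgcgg

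Fgl2 held a match to TTCNNNGAA at 28 to 36 bases before its start. The interferon response motif occurred in 2.54% of the upstream windows of all 13075 tested genes with an entry. Among genes with an entry it was found in 3 of 39 called higher outside the segment (Cybb, Gm11681 and Ifi213), 1 of 46 called lower (Pnrc1) and 0 of 57 called higher in the segment. TTCNNNGAA occurred in 5.84% of all windows, in 2 of the 39 (Fgl2 and H1f4), in 3 of the 46 and in 3 of the 57. Ifi213, a member of the HIN-200 family named here for its match, was nearly absent from WT, at 0 to 0.0626 CPM, and at 0.323, 0.252, 0.476, 0.0953 and 0.257 CPM in Dp16_2xIFNRs, a rise (edgeR adjusted p = 0.0395) that ended without single libraries in 8 of 11 cases (highest edgeR adjusted p = 0.184, without Dp16_2xIFNRs replicate 3). A match describes the letters of the window and not binding.

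Among the falls, Cbs had one of the smallest adjusted p values outside the segment. Cbs, at chr17:31608894-31637238, makes cystathionine from homocysteine, and its human counterpart lies on chromosome 21 although the mouse gene is outside the duplication. It was at 26.0 to 27.8 CPM in WT, with a median of 27.1, against 16.8, 19.6, 19.7, 18.0 and 15.1 CPM in Dp16_2xIFNRs. The WT mice were close together, and all Dp16_2xIFNRs mice were below them, a difference of -0.61 ± 0.068 on the log2 scale (SE; edgeR adjusted p = 2.89e-05). Of the 41 tested mouse counterparts of human chromosome 21 genes outside the duplication, Cbs and Pcnt fell and none rose, with a median of -0.0057 and 5 higher and 4 lower at an unadjusted p under 0.05. Among all 18861 genes tested outside the segment, 1511 were higher and 1632 lower at that threshold, so these counts do not set the list apart. Pcnt, the centrosome scaffold pericentrin, stood at 37.1 to 45.6 CPM in WT (median 41.5) and at 33.6, 33.7, 28.3, 31.9 and 32.7 CPM in Dp16_2xIFNRs. All Dp16_2xIFNRs mice were below WT, a difference of -0.36 ± 0.073 on the log2 scale (SE; edgeR adjusted p = 0.0199). Its call ended without single libraries in 2 of 11 cases (highest edgeR adjusted p = 0.107, without Dp16_2xIFNRs replicate 3). Cbs was the single call among 25 tested genes of homocysteine and one-carbon metabolism, with 2 higher and 2 lower at an unadjusted p under 0.05, Cbs included. These counts too are near the share over all genes outside the segment.

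The 10 largest falls among called genes of at least 1 CPM included Mfge8, Tnc, Chrdl1 and Sall3. Mfge8, a secreted bridge between phosphatidylserine and phagocyte integrins, at chr7:79133768-79149060, ranged from 131 to 177 CPM in WT (median 159) and measured 121, 105, 102, 104 and 110.1 CPM in the Dp16_2xIFNRs mice. The Dp16_2xIFNRs mice were below all WT mice, a difference of -0.56 ± 0.076 on the log2 scale (SE; edgeR adjusted p = 0.000292). Tnc, tenascin C of the extracellular matrix, was at 4.93 to 7.23 CPM in WT, with a median of 6.14, against 3.52, 3.62, 3.74, 3.81 and 3.53 CPM in Dp16_2xIFNRs. All 5 values of Tnc lay within a narrow range below WT, a difference of -0.75 ± 0.13 on the log2 scale (SE; edgeR adjusted p = 0.00381). Chrdl1, a BMP antagonist that astrocytes secrete, stood at 4.70 to 6.86 CPM in WT (median 6.03) and at 3.65, 3.50, 3.36, 3.21 and 3.95 CPM in Dp16_2xIFNRs. It did not overlap with WT (log2 fold change -0.77 ± 0.14, SE; edgeR adjusted p = 0.00708). Sall3, a zinc finger repressor, ranged from 5.56 to 8.08 CPM in WT (median 6.66) and measured 4.75, 4.66, 3.78, 3.18 and 4.14 CPM in the Dp16_2xIFNRs mice, also without overlap (log2 fold change -0.74 ± 0.11, SE; edgeR adjusted p = 0.00122).

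In the astrocyte marker list 3 of 14 tested members fell and none rose, with a median of -0.060. Besides Mfge8 these were the growth factor receptor Fgfr3, at 99.9 to 119 CPM in WT and 97.4, 90.7, 89.9, 76.9 and 85.1 CPM in Dp16_2xIFNRs (log2 fold change -0.35 ± 0.058, SE; edgeR adjusted p = 0.00251), and Atp1b2, a sodium pump subunit (log2 fold change -0.24 ± 0.050, SE; edgeR adjusted p = 0.0256). Fgfr3 did not overlap between the groups, and Atp1b2 lost its call without single libraries in 6 of 11 cases (highest edgeR adjusted p = 0.132, without Dp16_2xIFNRs replicate 3). The summed level of the markers was 5653 to 7274 CPM in WT and 6949, 6203, 6092, 6350.0 and 7119.7 CPM in Dp16_2xIFNRs, which weights the abundant markers. As a mean log2 level relative to the WT mean the list was at -0.049 to 0.083 in WT and 0.089, -0.12, -0.12, -0.13 and -0.034 in Dp16_2xIFNRs, so that replicates 2, 3 and 4 lay below the WT range and replicate 1 just above it. The connexin gene Gjb2 was at 5.50 to 8.84 CPM in WT and 15.2, 10.2, 10.98, 10.8 and 10.6 CPM in Dp16_2xIFNRs, a log2 difference of 0.68 and no call (edgeR adjusted p = 0.140). In the list of reactive astrocyte genes C4b alone of 22 was called, 19 were positive, 11 were higher and 0 lower at an unadjusted p under 0.05, and the median was 0.23. This list shares members with lists described below. C4b and Serping1 are also complement genes, H2-D1 an MHC class I gene, Iigp1 an interferon gamma response gene and Cxcl10 a chemokine. Its counts are thus not separate from theirs and do not single out astrocytes.

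The remaining large falls were those of scarce genes of mixed roles. Rec8, a cohesin subunit of meiosis, was at 2.32 to 4.47 CPM in WT, with a median of 3.25, against 1.13, 2.49, 1.40, 1.27 and 0.994 CPM in Dp16_2xIFNRs. Replicate 2 of Dp16_2xIFNRs lay inside the WT range and the other 4 below it, a difference of -1.21 ± 0.26 on the log2 scale (SE; edgeR adjusted p = 0.0289). Mlph, which links melanosomes to myosin Va, stood at 1.57 to 3.09 CPM in WT (median 1.94) and at 1.10, 1.17, 0.889, 1.14 and 1.32 CPM in Dp16_2xIFNRs. All 5 were below WT (log2 fold change -0.91 ± 0.21, SE; edgeR adjusted p = 0.0395). Bbc3, the p53-induced death factor PUMA, ranged from 6.55 to 9.39 CPM in WT (median 8.49) and measured 4.88, 7.27, 4.86, 5.37 and 5.45 CPM in the Dp16_2xIFNRs mice. Replicate 2 of Dp16_2xIFNRs lay inside the WT range (log2 fold change -0.56 ± 0.12, SE; edgeR adjusted p = 0.0306), and Bbc3 was the single call among 15 tested p53 targets. Entpd2, an ectonucleotidase, and Egfl6, a secreted matrix protein, fell by 0.57 and 0.59 (edgeR adjusted p = 0.0256 and 0.0312). All 5 calls depended on single libraries. The number of the 11 whose omission ended the call was 5 for Rec8 (highest edgeR adjusted p = 0.108, without Dp16_2xIFNRs replicate 3), 7 for Mlph (highest edgeR adjusted p = 0.151, without Dp16_2xIFNRs replicate 3), 6 for Bbc3 (highest edgeR adjusted p = 0.138, without Dp16_2xIFNRs replicate 3), 5 for Entpd2 (highest edgeR adjusted p = 0.0858, without Dp16_2xIFNRs replicate 2) and 6 for Egfl6 (highest edgeR adjusted p = 0.123, without Dp16_2xIFNRs replicate 3).

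A list of 21 genes that were singled out in Dp16 against WT, where edgeR called 102 of 18983 genes (0.537%), shares its WT mice with the comparison here and gives no independent support. Cbs, C4b, Mfge8, Rfx5, Lyz2, Dlx6os1, H2ac6, Slc5a5 and Cybrd1 are on it and also in the functional or cell type lists. Those lists were written with earlier results known, so the calls of these genes in them say little about the families. In Dp16_2xIFNRs against WT, 18 of the 21 were called. The sodium-iodide symporter Slc5a5 had log2 fold changes of 0.62 in Dp16_2xIFNRs and 0.73 in Dp16, the ferric reductase Cybrd1 0.66 and 0.71, the transcription factor Tfcp2l1 0.76 and 0.75, and the mitochondrial carrier Slc25a34 0.77 and 0.92. Slc5a5 stood at 15.4 to 24.2 CPM in WT (median 20.6) and at 34.8, 27.7, 28.9, 31.1 and 31.0 CPM in Dp16_2xIFNRs, Cybrd1 at 2.73 to 4.17 CPM in WT (median 3.70) and at 6.53, 5.20, 5.59, 4.38 and 7.28 CPM in Dp16_2xIFNRs. Neither overlapped between the groups (edgeR adjusted p = 0.00107 and 0.00369). Tfcp2l1 was at 4.19 to 5.25 CPM in WT, with a median of 4.75, against 9.02, 9.64, 6.28, 7.09 and 8.50 CPM in Dp16_2xIFNRs (edgeR adjusted p = 0.000292). Selenov, a selenoprotein, rose by 1.94, and Rida, which hydrolyses reactive enamines, by 0.44 (edgeR adjusted p = 0.000640 and 0.0117). Falls were those of Pik3r3, a regulatory subunit of PI 3-kinase, by 0.36, and the nuclear receptor coactivator Pnrc1 by 0.41 (edgeR adjusted p = 0.00281 and 0.00297). The NMDA receptor subunit Grin2c (-0.37, adjusted p = 0.0524), the kinase Dyrk1b (-0.14, 0.316) and Tspan17 (-0.19, 0.0793) did not pass with edgeR.

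The interferon-responsive genes were examined next. As single genes few passed: 2 of 27 tested genes of the interferon gamma response rose and none fell. DESeq2 called 5 of the 27 higher (Gbp9, Iigp1, Nlrc5, Gbp4 and Gbp6), and edgeR called 0 with the replicate number as a block or with the fibroblast covariate. Of 45 tested interferon-stimulated genes edgeR called 0, DESeq2 3 higher and 0 lower, and limma-voom 0 and 0. Most members nevertheless had positive log2 fold changes, 23 of 27 with a median of 0.38 in the first list and 41 of 45 with a median of 0.29 in the second, where all genes outside the segment had a median of 0.0036 and 50.8% positive, with 1511 of the 18861 higher and 1632 lower at an unadjusted p under 0.05. At an unadjusted p under 0.05, 17 of the 27 were higher and 1 lower, and 11 of the 45 were higher and 0 lower.

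The called genes were guanylate-binding proteins, GTPases that interferon gamma induces against intracellular pathogens. Gbp6 stood at 0.433 to 0.815 CPM in WT (median 0.548) and at 1.81, 1.13, 1.55, 1.11 and 1.80 CPM in Dp16_2xIFNRs. All Dp16_2xIFNRs mice exceeded WT, a difference of 1.35 ± 0.26 on the log2 scale (SE; edgeR adjusted p = 0.0103). Gbp9 ranged from 3.42 to 5.09 CPM in WT (median 3.76) and measured 6.86, 5.54, 6.09, 5.97 and 5.42 CPM in the Dp16_2xIFNRs mice, without overlap (log2 fold change 0.57 ± 0.11, SE; edgeR adjusted p = 0.0169). It shares its strand and position with Gbp8 and Gbp4, so counts among these paralogs are uncertain, and its call ended without single libraries in 2 of 11 cases (highest edgeR adjusted p = 0.0792, without Dp16_2xIFNRs replicate 3). Gbp8 itself showed a log2 difference of 1.39 (edgeR adjusted p = 0.0814) and the immunity-related GTPase Iigp1 one of 0.86 (edgeR adjusted p = 0.0703), at 1.44 to 3.51 CPM in WT and 3.98, 4.25, 4.13, 3.49 and 4.27 CPM in Dp16_2xIFNRs. Dp16 mice had 0.571 to 1.5004 CPM of Gbp6 and 4.67 to 5.94 CPM of Gbp9.

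Interferon-stimulated genes with the smallest p were Dtx3l, a ubiquitin ligase that works with Parp9, Ifit1, which binds viral RNA, and the antiviral Samd9l. Dtx3l was at 5.64 to 7.45 CPM in WT, with a median of 6.63, against 7.47, 9.57, 9.08, 7.85 and 8.69 CPM in Dp16_2xIFNRs (log2 fold change 0.37 ± 0.090, SE; edgeR adjusted p = 0.0572). Ifit1 stood at 1.83 to 4.82 CPM in WT (median 2.57) and at 5.85, 4.25, 3.97, 4.04 and 6.64 CPM in Dp16_2xIFNRs (log2 fold change 0.69 ± 0.19, SE; edgeR adjusted p = 0.0922). Samd9l showed a log2 difference of 0.48 ± 0.14 (SE; edgeR adjusted p = 0.0968), Parp9 of 0.34 (edgeR adjusted p = 0.204) and the ISG15 protease Usp18 of 0.50 (edgeR adjusted p = 0.331). None passed. All 5 Dp16_2xIFNRs values of Dtx3l lay above WT, replicate 1 by little, while the ranges of Ifit1 overlapped. As a mean log2 level of the list relative to the WT mean, interferon-stimulated genes were at -0.30 to 0.38 in WT and 0.56, 0.26, 0.31, 0.0046 and 0.47 in Dp16_2xIFNRs, and those of the interferon gamma response at -0.16 to 0.40 and 0.69, 0.40, 0.47, 0.42 and 0.45. In the first list the groups overlapped, and replicate 4 lay near the WT mean. Among 14 receptor partners, kinases and STATs edgeR called 0 (DESeq2 0 higher and 0 lower), with 1 higher at an unadjusted p under 0.05; the median was 0.14. Stat2 was at 0.20 (edgeR adjusted p = 0.230) and the kinase Tyk2 at 0.25 (edgeR adjusted p = 0.349).

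**Figure D4:**
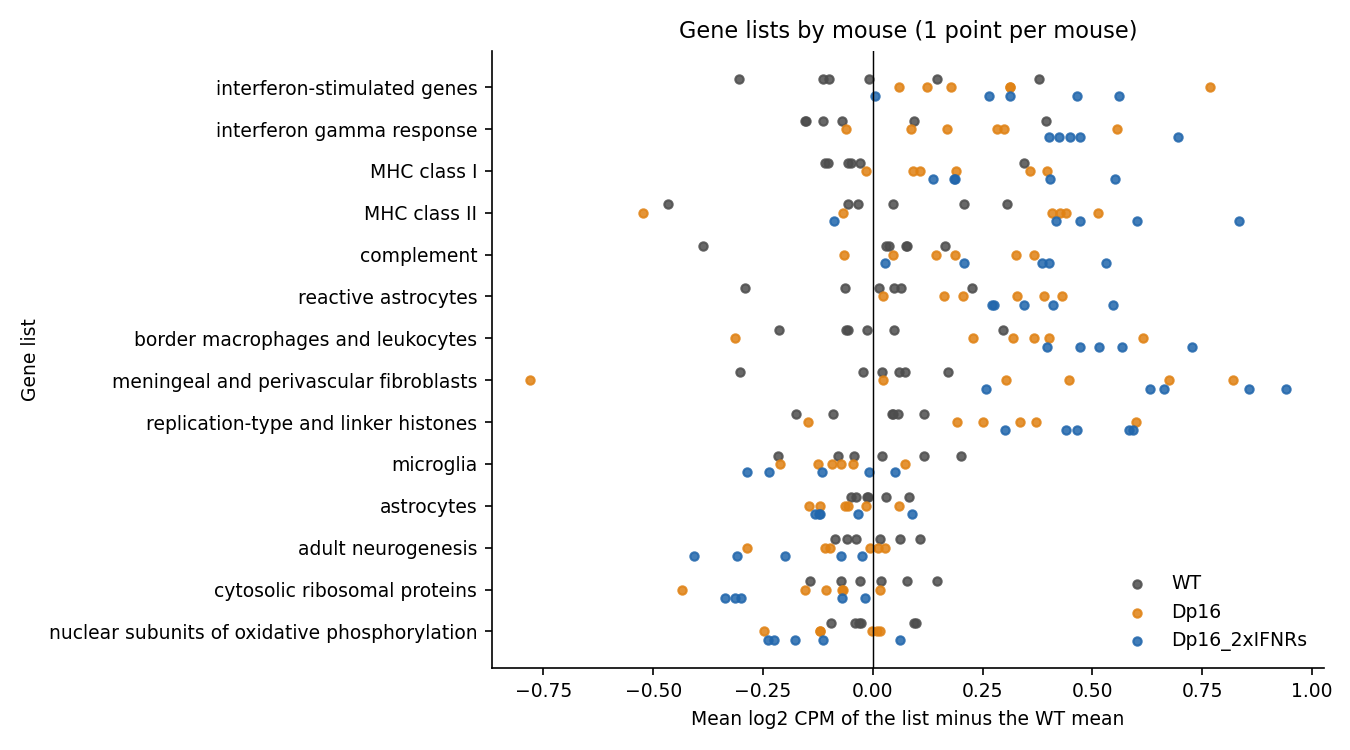
Mean log2 CPM of the tested members of 14 gene lists in each mouse, less the mean of the WT mice; grey points are WT, orange points Dp16 and blue points Dp16_2xIFNRs. Blue points lie to the right of 0 in the border macrophage list (0.40 to 0.73) and the fibroblast list (0.26 to 0.94) and spread over both sides of 0 in the microglia list.

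Most antigen presentation genes had positive log2 fold changes, and edgeR called no rise among them with all libraries and the sex term alone. With the length slope as a covariate, added after seeing the data, edgeR called 4 class I genes higher. Of 18 tested genes of MHC class I edgeR called 0 (DESeq2 1 higher and 0 lower), 8 were higher and 0 lower at an unadjusted p under 0.05, and the median was 0.23. H2-K1, a classical class I heavy chain, ranged from 29.6 to 49.9 CPM in WT (median 33.2) and measured 55.5, 44.3, 52.5, 41.6 and 45.3 CPM in the Dp16_2xIFNRs mice. WT replicate 3 was as high as the Dp16_2xIFNRs mice, and the log2 fold change of 0.43 did not pass (edgeR adjusted p = 0.0866). H2-D1 was at 0.35 (edgeR adjusted p = 0.164), the immunoproteasome subunit Psmb9 at 0.61 (edgeR adjusted p = 0.193) and the peptide transporter Tap2 at 0.31 (edgeR adjusted p = 0.205). Class I genes are polymorphic and similar in sequence, so their counts are uncertain. Of 10 tested genes of MHC class II the median was 0.53. H2-Ab1 stood at 1.02 to 3.38 CPM in WT (median 2.77) and at 8.21, 5.89, 6.51, 5.12 and 2.92 CPM in Dp16_2xIFNRs and H2-Eb1 at 1.21 to 3.79 CPM in WT (median 2.91) and at 7.40, 6.46, 6.19, 4.83 and 2.25 CPM in Dp16_2xIFNRs. Replicate 5 lay inside the WT range in both and replicates 1 to 4 above it, and neither passed (1.13, edgeR adjusted p = 0.117, and 0.90, adjusted p = 0.144). H2-DMa, a class II peptide editor, was at 0.34 (edgeR adjusted p = 0.0626).

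Of the class II list edgeR called Rfx5 alone, which fell, while DESeq2 called 2 members higher (H2-DMa and H2-Eb1) and 1 lower. Without the 3 libraries lowest in choroid plexus edgeR called 4 higher and 0 lower. Rfx5 is a factor that binds class II promoters, is expressed widely, and was at 17.4 to 22.7 CPM in WT, with a median of 18.6, against 12.6, 15.2, 15.7, 13.4 and 12.7 CPM in Dp16_2xIFNRs. All Dp16_2xIFNRs mice lay below WT, a difference of -0.45 ± 0.091 on the log2 scale (SE; edgeR adjusted p = 0.0157), and the call ended without single libraries in 1 of 11 cases (highest edgeR adjusted p = 0.0595, without Dp16_2xIFNRs replicate 4). Of 18 tested complement genes C4b and C2 rose and none fell (DESeq2 6 higher and 0 lower), 8 were higher at an unadjusted p under 0.05, and the median was 0.21. The protease C1s1 showed a log2 difference of 1.03 (edgeR adjusted p = 0.0778) and the C1 inhibitor Serping1, at 4.95 to 7.95 CPM in WT and 11.5, 11.9, 9.90, 8.07 and 7.38 CPM in Dp16_2xIFNRs, one of 0.63 (edgeR adjusted p = 0.0995). Of 14 tested cytokines and chemokines edgeR called 0 (DESeq2 0 higher and 0 lower), 3 were higher and 0 lower at an unadjusted p under 0.05, and the median was 0.070.

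Markers of border macrophages, leukocytes and fibroblasts had positive medians. Cybb and Lyz2 rose among 13 tested genes of border macrophages and leukocytes and none fell, with a median of 0.60. Lyz2, the lysozyme of myeloid cells, stood at 8.63 to 10.04 CPM in WT (median 9.21) and at 17.9, 15.0, 16.7, 12.4 and 12.5 CPM in Dp16_2xIFNRs. All Dp16_2xIFNRs mice were above WT (log2 fold change 0.68 ± 0.13, SE; edgeR adjusted p = 0.0100), and the call ended without single libraries in 1 of 11 cases (highest edgeR adjusted p = 0.0591, without Dp16_2xIFNRs replicate 3). The macrophage mannose receptor Mrc1, at 3.35 to 6.13 CPM in WT and 8.86, 5.86, 5.62, 7.24 and 5.84 CPM in Dp16_2xIFNRs, showed a log2 difference of 0.60 (edgeR adjusted p = 0.0793) and the leukocyte phosphatase Ptprc one of 0.38 (edgeR adjusted p = 0.218). Of 11 fibroblast genes Slc47a1 rose (DESeq2 called 4 higher, Col1a1, Slc47a1, Aldh1a2 and Slc6a13, and edgeR without the libraries lowest in choroid plexus 4), all 11 were positive, and the median was 0.60. Aldh1a2, which makes retinoic acid in the meninges, ranged from 3.48 to 7.27 CPM in WT (median 6.47) and measured 14.2, 12.9, 9.14, 12.9 and 8.40 CPM in the Dp16_2xIFNRs mice. Every Dp16_2xIFNRs mouse was above WT, yet the log2 fold change of 0.90 did not pass with all libraries (edgeR adjusted p = 0.0906). The collagen Col1a1 was at 0.68 (edgeR adjusted p = 0.103) and decorin, Dcn, at 0.59 (edgeR adjusted p = 0.115).

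With the fibroblast level as a covariate, added after seeing the data, the calls outside the segment went from 120 to 22, and Gbp6, Gbp9 and Lyz2 were not among them, with log2 fold changes of 1.16, 0.54 and 0.37 (edgeR adjusted p = 0.190, 0.190 and 0.233). In the segment 48 of the 66 calls were kept with this covariate. The medians of the lists became 0.10 for MHC class II, 0.10 for complement and 0.23 for border macrophages, while that of the interferon gamma response was 0.43 and that of the interferon-stimulated genes 0.23. Dp16 mice spanned 24.1 to 39.5 CPM in the border macrophage sum and 94.8 to 176 CPM in the fibroblast sum. The part of tissue composition in these differences was not tested. Without the 3 libraries lowest in choroid plexus and with the same covariate, edgeR called 1 gene outside the segment and 8 in it. Parenchymal microglia markers had a negative median, which came to -0.018 with the length slope as a covariate. Their sum was 439 to 571 CPM in WT and 510.1, 431, 460.5, 421 and 495 CPM in Dp16_2xIFNRs, edgeR called 0 of 15 (DESeq2 0 higher and 1 lower), 5 were lower and 0 higher at an unadjusted p under 0.05, and the median was -0.15. The purinergic receptor P2ry12 was at -0.26 (edgeR adjusted p = 0.207).

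Few neuronal genes were called. None of the 16 tested pyramidal and granule neuron markers was called by edgeR (DESeq2 0 higher and 0 lower), with 1 higher and 0 lower at an unadjusted p under 0.05. Gabrd, the delta subunit of extrasynaptic GABA-A receptors of granule cells, fell alone of 12 GABA-A subunits. It was at 22.2 to 35.8 CPM in WT, with a median of 28.05, against 19.4, 20.9, 19.0, 18.3 and 22.3 CPM in Dp16_2xIFNRs. Most Dp16_2xIFNRs values lay below WT, replicate 5 within its lower edge (log2 fold change -0.53 ± 0.11, SE; edgeR adjusted p = 0.0292). Cplx1, complexin 1 of the release machinery, fell alone of 24 synaptic vesicle genes and stood at 504 to 586 CPM in WT (median 540.4) and at 492.93, 404, 409, 446 and 501 CPM in Dp16_2xIFNRs. All Dp16_2xIFNRs mice were below WT (log2 fold change -0.28 ± 0.063, SE; edgeR adjusted p = 0.0393). Omission of single libraries ended the call of Gabrd in 5 of 11 cases (highest edgeR adjusted p = 0.128, without Dp16_2xIFNRs replicate 3) and that of Cplx1 in 6 of 11 cases (highest edgeR adjusted p = 0.178, without Dp16_2xIFNRs replicate 3). Of 22 glutamate receptor subunits edgeR called 0 (DESeq2 0 higher and 2 lower), with 3 higher and 3 lower at an unadjusted p under 0.05. Dlx6os1, a long noncoding RNA antisense to Dlx6 in interneurons and already singled out in Dp16 against WT, rose alone of 20 interneuron genes. It ranged from 14.7 to 24.2 CPM in WT (median 19.2) and measured 27.97, 27.9, 30.7, 31.0 and 32.2 CPM in the Dp16_2xIFNRs mice, with no overlap (log2 fold change 0.62 ± 0.10, SE; edgeR adjusted p = 0.00293).

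Genes of adult neurogenesis had a median of -0.23 over 16 tested members, with 1 higher and 5 lower at an unadjusted p under 0.05, of which edgeR called 0 (DESeq2 0 higher and 2 lower). Stmn1, a microtubule regulator of immature neurons, was at 297 to 372 CPM in WT, with a median of 337, against 288, 217, 205, 271 and 288 CPM in Dp16_2xIFNRs. All Dp16_2xIFNRs mice were below WT, with a log2 fold change of -0.41 ± 0.10 (SE) that just missed the threshold (edgeR adjusted p = 0.0561). The transcription factor Sox4 was at -0.23 (edgeR adjusted p = 0.0816), and the guidance protein Draxin at 0.49 (edgeR adjusted p = 0.216). Thalamus and habenula markers had a median of -0.47 over 11 members with 0 called by edgeR (DESeq2 0 higher and 0 lower), 0 higher and 4 lower at an unadjusted p under 0.05, and their sum in Dp16_2xIFNRs, 207, 188, 182, 183 and 192 CPM, was at the lower end of WT. The median rested on WT replicate 4, which stood apart in these markers, and was -0.074 without it.

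Ribosomal protein and respiratory chain genes had small negative log2 fold changes, none of which was called by edgeR. Of 84 tested cytosolic ribosomal protein genes, 1 was positive, the median was -0.23, 66 were lower and 0 higher at an unadjusted p under 0.05, and edgeR called 0 (DESeq2 0 higher and 10 lower). Rpl14 stood at 167 to 202 CPM in WT (median 181) and at 160.3, 137, 146, 148 and 167 CPM in Dp16_2xIFNRs and Rpl27a at 165 to 201 CPM in WT (median 186) and at 169.9, 143, 145, 149 and 171 CPM in Dp16_2xIFNRs, with log2 fold changes of -0.27 and -0.24 (edgeR adjusted p = 0.0980 and 0.0941). Replicates 1 and 5 of Dp16_2xIFNRs lay among or next to the WT mice and replicates 2, 3 and 4 below them. Of 77 nuclear genes of oxidative phosphorylation, 1 was positive, the median was -0.16, 38 were lower and 0 higher at an unadjusted p under 0.05, and edgeR called 0 (DESeq2 0 higher and 4 lower). The complex I subunits Ndufa8 and Ndufb2 had log2 fold changes of -0.21 and -0.23 (edgeR adjusted p = 0.10997 and 0.111).

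Transcript length moved with these libraries. The slope of each library's log2 levels on log2 gene length, relative to the mean of all libraries, was -0.038 to 0.036 in WT and -0.012, 0.064, 0.044, 0.056 and 0.024 in Dp16_2xIFNRs, highest in replicates 2, 4 and 3. Genes outside the segment were put in 4 groups by length, of 3885, 3888, 3898 and 3878 genes, which leaves out part of the 18861 tested. The median log2 fold change was -0.067 in the shortest group and 0.042 in the longest. The slope was computed from the levels in these same libraries, and replicates 2, 3 and 4 of Dp16_2xIFNRs lay above the WT range. As a covariate it can thus take up part of the genotype difference. The part of transcript length in the differences from WT was not tested. With the slope as a covariate, also added after seeing the data, the medians were -0.065 for ribosomal proteins and -0.048 for oxidative phosphorylation. They were -0.018 for microglia markers, -0.0060 for astrocyte markers and -0.18 for adult neurogenesis genes. Other medians were larger with it: 0.51 for the interferon gamma response (0.38 without), 0.37 for interferon-stimulated genes (0.29), 0.35 for MHC class I (0.23) and 0.72 for fibroblasts (0.60). Of 13 mitochondrially encoded genes edgeR called 0 (DESeq2 0 higher and 0 lower), with 0 higher and 1 lower at an unadjusted p under 0.05 and a median of -0.085.

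Of 22 tested replication-type and linker histone genes H1f4, H1f2 and H2ac6 rose and none fell, 12 were higher and 3 lower at an unadjusted p under 0.05, and the median was 0.51. H1f2, a linker histone, stood at 24.4 to 30.3 CPM in WT (median 25.7) and at 35.6, 37.9, 36.4, 43.2 and 41.5 CPM in Dp16_2xIFNRs, and H2ac6, a histone H2A gene, at 1.57 to 2.73 CPM in WT (median 1.92) and at 3.27, 2.80, 3.49, 4.00 and 3.46 CPM in Dp16_2xIFNRs. Both were above WT in all 5 mice (log2 fold change 0.55 ± 0.10, SE; edgeR adjusted p = 0.00745, and 0.79 ± 0.13, SE; adjusted p = 0.00251). The Slc5a5 and Cybrd1 rises were the calls among 12 tested genes of iron, iodide and osmolyte transport. Both genes, like H2ac6, had already been singled out in Dp16 against the same WT mice.

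The other lists had no member called by edgeR. Their median log2 fold changes were 0.065 over 25 genes for cholesterol synthesis, -0.052 over 19 genes for immediate early genes, 0.020 over 16 genes for stress and heat shock genes, 0.054 over 57 genes for clustered protocadherins, -0.046 over 12 genes for oligodendrocytes, -0.070 over 7 genes for oligodendrocyte precursors, -0.012 over 12 genes for endothelium, 0.14 over 10 genes for pericytes and smooth muscle, -0.17 over 14 genes for choroid plexus and 0.023 over 8 genes for ependyma. At an unadjusted p under 0.05, the counts of higher and of lower members were 4 and 3 for cholesterol synthesis, 0 and 0 for immediate early genes, 0 and 2 for stress and heat shock genes, 4 and 3 for clustered protocadherins, 1 and 0 for oligodendrocytes, 0 and 0 for oligodendrocyte precursors, 0 and 0 for endothelium, 2 and 0 for pericytes and smooth muscle, 0 and 0 for choroid plexus and 0 and 0 for ependyma. DESeq2 called, in either direction, 1 for cholesterol synthesis, 0 for immediate early genes, 0 for stress and heat shock genes, 1 for clustered protocadherins, 0 for oligodendrocytes, 0 for oligodendrocyte precursors, 0 for endothelium, 0 for pericytes and smooth muscle, 0 for choroid plexus and 0 for ependyma.

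Set against Dp16 directly, Dp16_2xIFNRs differed in 3 of 18983 genes (0.0158%), all receptors: Ifngr2 fell by 0.68 on the log2 scale, Ifnar2 by 0.63 and Ifnar1 by 0.49 (edgeR adjusted p = 0.000136, 0.00329 and 0.000841). Il10rb, with a log2 difference of -0.56, did not pass (edgeR adjusted p = 0.277). At an unadjusted p under 0.05 there were 1986 genes, where 5% would be 949. Of the 120 genes called outside the segment against WT, 43 were among these. The 120 were picked with the same Dp16_2xIFNRs mice, which can raise that number. No gene outside the segment was called against Dp16. None of the differences from WT outside the segment is thus shown to differ between both kinds of duplication mice. The log2 differences of C4b were 0.88 against WT and 0.20 against Dp16 (edgeR adjusted p = 0.523). For Cbs they were -0.61 against WT and -0.016 against Dp16 (edgeR adjusted p = 0.946), for Gbp6 1.35 against WT and 0.45 against Dp16 (edgeR adjusted p = 0.525), for Chrdl1 -0.77 against WT and -0.50 against Dp16 (edgeR adjusted p = 0.433) and for Mlph -0.91 against WT and -0.72 against Dp16 (edgeR adjusted p = 0.433). Median log2 differences from Dp16 were -0.0090 for interferon-stimulated genes, 0.18 for the interferon gamma response and 0.34 for fibroblast genes, where all genes outside the segment had -0.0071.

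The difference from WT was also compared between females and males. For the interaction of genotype with sex edgeR called 0 of 18983 genes (0%), as did DESeq2 and limma-voom, and 519 had an unadjusted p under 0.05, where 5% would be 949. The male group held 2 Dp16_2xIFNRs mice, which limits the precision of the male values.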

How the data were processed

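PolyA RNA of mouse hippocampus was sequenced as paired 150-base reads from strand-specific libraries, per the labels' protocols. The deposited tables hold whole read counts per gene, made by the authors, and RPKM values made by the authors from the same counts. The submitters' processing notes name FastQC 0.11.5, HISAT2 2.1.0, SAMtools 1.5, HTSeq 0.6.1 and the GRCm38 build, and the strand setting of the counting is not given in the sources used here. Gene names are those of GENCODE M24, as the tables give them; positions come from GENCODE M21, which lacked 241 of the 55385 genes.

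The deposited counts of all 17 libraries were fitted together with edgeR 4.0.16 (R 4.3.3; quasi-likelihood test, TMM scaling, filterByExpr with a minimum count of 10, terms for genotype and sex, 13 residual degrees of freedom). P-values were adjusted by the Benjamini-Hochberg method over 18983 genes and called at an adjusted p under 0.05. CPM are scaled with TMM factors. With 30395437 to 32855277 counts in each of the 11 libraries the common biological coefficient of variation was 14.1%. Alternatives used DESeq2 1.42.0, limma 3.58.1 (also on log2 of the deposited RPKM plus 0.1 or 1), other filters and covariates, a replicate block and single libraries left out. The covariates for the fibroblast level and the length slope, alone or with libraries left out, were chosen after seeing the data. The fit was tested on simulated data.

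Genes, lists and tests were chosen with earlier results of these data known. Named genes outside the segment were the 10 largest rises and falls among called genes of at least 1 CPM with a full name and the same direction in both sexes. Up to 4 members of a list were named, the called ones first, then those of smallest p. Within the segment the extremes and up to 4 members of each role list were named. The 4 receptors, the genes called against Dp16 and a list from an earlier comparison of Dp16 with WT were always named. Olig1, Olig2, Pcp4, Bace2 and Ifi213 lay outside this rule and were chosen after their values were seen. The main edgeR p-values set each mean difference against the spread between mice, which was estimated over all 17 libraries, Dp16 included.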

Additional observations from a re-analysis of the deposited data

Results flagged for a closer look

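Each value here lay apart from the other mice of its group, by a gap to the nearest mouse that is large against the range of the group. Of 264 groups of values looked at, 15 were picked out in this way, where chance at 1 in 20 gives 13.2. The causes were not tested.

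In WT, Dyrk1a of the segment was at 92.5 CPM in replicate 6, with 84.3 CPM next. Ifnar1 was at 48.3 CPM in replicate 2 (next 42.4), the library whose omission let edgeR call Ifnar1 in Dp16_2xIFNRs. Pcp4 was at 226 CPM in replicate 4 (next 131), which also held the highest sum of thalamus and habenula markers, 665 CPM (next 252), and of Tyk2, 21.7 CPM (next 16.3). Replicate 3 was highest in H2-K1 at 49.9 CPM (next 34.4) and in 2810407A14Rik at 2.94 CPM (next 1.83), and lowest in the fibroblast gene Aldh1a2 at 3.48 CPM (next 5.96). The border macrophage gene Mrc1 was at 6.13 CPM in replicate 2 (next 4.35).

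In Dp16_2xIFNRs, replicate 1 was lowest in Kcnj6 at 43.0 CPM (next 55.8) and in Stat2 at 25.5 CPM (next 28.7), and highest in Gjb2 at 15.2 CPM (next 10.98). Replicate 2 was highest in Rec8 at 2.49 CPM (next 1.40) and in Bbc3 at 7.27 CPM (next 5.45), 2 genes that fell, and lowest in Gm15966 at 1.42 CPM (next 2.86).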

How the results depend on the processing

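Every one of the 66 called genes named in the text kept its direction in the 30 settings in which genes were refitted, and 11 named genes that were not called changed sign in at least 1. The number of calls moved more. Outside the segment, against 55 higher and 65 lower, DESeq2 called 233 and 326, no filter on low counts 176 and 169, the fit of the 2 groups alone 35 and 25, the choroid plexus level as a covariate 128 and 123, the replicate block 35 and 46, and an adjusted p under 0.1 195 and 209. Omission of the 3 libraries with the least choroid plexus signal (WT replicate 6, Dp16 replicate 6 and Dp16_2xIFNRs replicate 5) gave 43 lower. The fibroblast level as a covariate gave 14 and 8, and the length slope 32 and 14. The low-choroid libraries left out together with the fibroblast covariate gave 1 and 0, with 8 segment genes called of 66, 0 genes against Dp16 and 1 for the interaction with sex. Against Dp16, where 3 were called, DESeq2 called 6 and no filter 14. For the interaction, no filter called 5 and the fit without the low-choroid libraries 1. In the segment DESeq2 called 1 gene lower. Without single libraries there were 25 to 208 higher and 20 to 244 lower calls outside the segment, 56 to 69 higher and 0 lower in it, 3 to 4 against Dp16 and 0 to 1 for the interaction. With the replicate number as a block, 62 segment genes were called, and 67 of the 120 calls outside were kept. Same-numbered WT and Dp16_2xIFNRs mice had a mean r of 0.0391 over 5 pairs (-0.316 to 0.302). The 25 other pairs had a mean r of -0.0064 (-0.519 to 0.623). With so few pairs and so wide a range, these values cannot tell whether the numbers pair the mice. The 2 pairs sharing the second identifier part had a mean r of 0.265 (0.137 to 0.393), and limma-voom with that part as a random block called 110 genes outside, 108 of them among the 120. Among the genes that changed sign, the log2 fold change of Pcp4 was -0.0030 without the low-choroid libraries, Ifngr2 0.039 and 2810407A14Rik 0.20 with the fibroblast covariate, and Il10rb 0.019, 2810407A14Rik 0.034 and Gm15966 0.012 with the length slope. With both the libraries left out and the fibroblast covariate they were Col1a1 -0.15, Aldh1a2 -0.11, Parp9 -0.023, Ifngr2 0.16, Ifnar2 0.18, Mrc1 -0.053, Gjb2 -0.27, 2810407A14Rik 0.31 and Pcp4 -0.48. Col1a1 and Aldh1a2 are members of the fibroblast list, so here they were adjusted in part for themselves. Without single libraries Ifngr2 spanned -0.064 to 0.0092, Ifnar2 -0.061 to 0.030, Il10rb -0.068 to 0.017, 2810407A14Rik -0.16 to 0.11 and Pcp4 -0.012 to 0.32. The cause was not tested. With 5 and 6 mice and a biological coefficient of variation of 14.1%, a gene that was not called is not shown to be unchanged, least of all at low counts.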
